A study of Mus musculus with 24 samples.

Results

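The 38 mouse genes described here encode the main proteins of basement membranes and the integrins through which cells hold on to extracellular matrix. They were taken by gene symbol, from a list whose rule names no measured value but which was drawn up with earlier results of these data known, from a count table of 56205 gene rows, and all 38 were found. The 22 basement membrane genes are the 6 type IV collagen chains, collagens XV and XVIII, 10 laminin chains, 2 nidogens and the heparan sulfate proteoglycans perlecan (Hspg2) and agrin (Agrn). The 16 integrin genes are 10 alpha chains and 6 beta chains. All 38 passed the filter on low counts, which keeps a gene with enough reads in the libraries of either diet alone. Genes scarce in control, such as Itgb6, Itga2 and Col4a6, could therefore pass through the MCD libraries, where they are high. They are among the genes called higher below. Poly(A) RNA of whole liver had been sequenced from 24 C57BL/6J mice that were fed for 20 weeks, 12 on a methionine-choline deficient (MCD) diet and 12 on its control diet. No transgene or other treatment is named for either group, and the age of the mice at the start of the diets is not given in the sources used here. The study's methods describe the MCD diet as high in fat and do not give the fat content of the control diet. Its results text instead names a choline-deficient, amino acid-defined diet with high fat (CDAHFD) among its mouse models, so the composition of the diet is uncertain, and MCD here follows the labels. Each diet held equal numbers of males and females by the series description, but the sex of each mouse is not in the labels. The 12 libraries of a diet are numbered replicates and were treated as separate samples.

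A basement membrane is a thin sheet of matrix under epithelia and around vessels, muscle and nerve. It is built from a laminin network, in which each molecule joins an alpha, a beta and a gamma chain, and from a network of type IV collagen trimers, with nidogens and perlecan linking the networks. Integrins are receptors of an alpha and a beta chain that bind this matrix outside the cell and the cytoskeleton inside it. The normal liver is unusual in that its sinusoids lack a continuous basement membrane, while bile ducts and larger vessels have one, and matrix laid down along the sinusoids is a known feature of liver fibrosis.

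Total counts were 16793207 to 24915175 per control library and 16388650 to 24577848 per MCD library. Levels are given as CPM, counts relative to library sizes that were scaled by trimmed mean of M values (TMM), and 3 counts, taken as the floor of what a library resolves, were 0.134 to 0.227 CPM in control and 0.109 to 0.158 CPM in MCD. The floor covers counting error only. The TMM factors of the diets did not overlap, at 0.642 to 0.973 in control and 1.07 to 1.26 in MCD, so fold changes rest in part on the scaling. With total counts alone the median log2 fold change of all genes tested moved by 0.37, and with upper-quartile factors by 0.15. With no filter on low counts it moved by 0.12, but that median covers 27553 genes in place of 14109. The lowest factor belonged to control replicate 12, and counts of calls are given with and without that library. As a check of the tissue, 10 hepatocyte markers summed to 78897 to 188696 CPM in control and 61635 to 88786 CPM in MCD. Of them, 3 were called lower in MCD by the test below, which called 19.1% of all genes tested lower.

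The type IV collagen chains, several laminin chains and the integrins Itga2, Itga8, Itga11, Itgb4, Itgb6 and Itgb8 were higher in MCD livers, while Col18a1, Lama1 and Itgb3 were lower. By edgeR's quasi-likelihood test across 14109 genes, with calls made where the FDR (Benjamini-Hochberg) was at most 0.01 and the log2 fold change exceeded 0.5 in size, 23 of the 38 genes were higher in MCD, 3 were lower and 12 were not called. Of all genes tested, 19.2% were called higher and 19.1% lower. The median log2 fold change was 0.76 over the 38 genes and -0.10 over all genes tested. With total counts alone 27 of the 38 were higher and 1, Lama1, was lower, while over all genes 4539 were higher and 848 lower, so that 84.3% of calls were higher in place of 50.2%. Without control replicate 12 the counts were 24 higher and 4 lower. Without MCD replicate 8, the highest MCD library in 15 of the 23 raised genes, they were 22 and 2. In 14 of the 38 genes every MCD library lay above every control library, against 9.50% of all genes tested, and in 1, Col18a1, every MCD library lay below, against 4.88%. With total counts alone those numbers were 20 and 0 of the 38, against 17.5% and 0.688% of all genes tested. Since whole liver was sequenced, fewer cells of a type and less RNA per cell cannot be told apart, and neither can more cells and more RNA per cell.

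**Figure D1:**
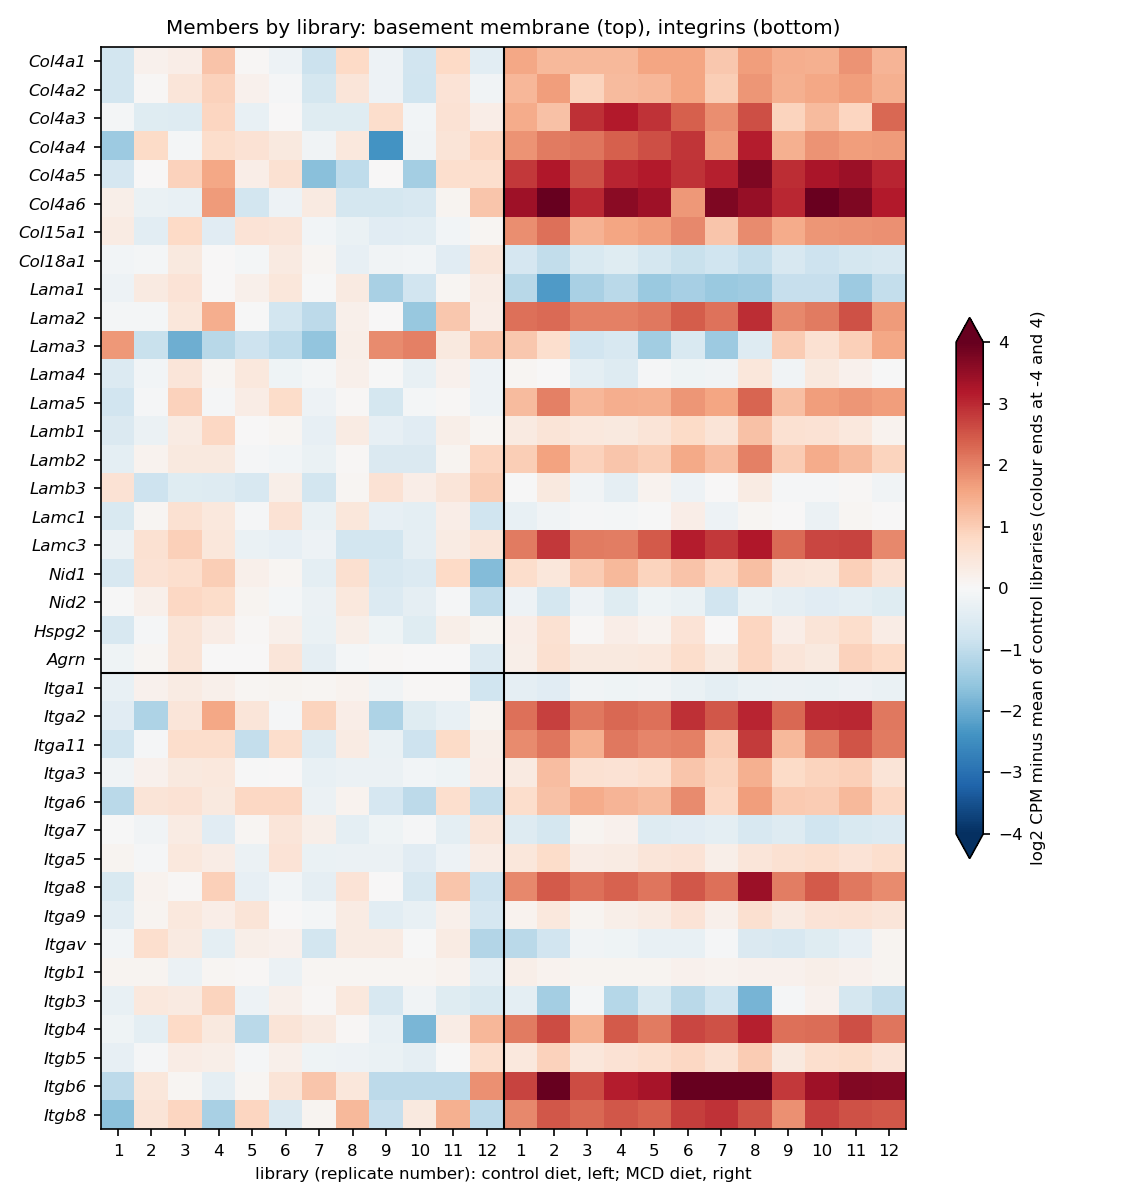
Log2 CPM of the 38 genes (rows) in the 24 libraries (columns, by replicate number), each minus the mean of the 12 control libraries, with basement membrane genes above the horizontal line and integrins below it. Type IV collagen rows are red across all 12 MCD columns, Col18a1 and Lama1 are blue there, and Lama3 varies among the control libraries themselves.

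**Figure D2:**
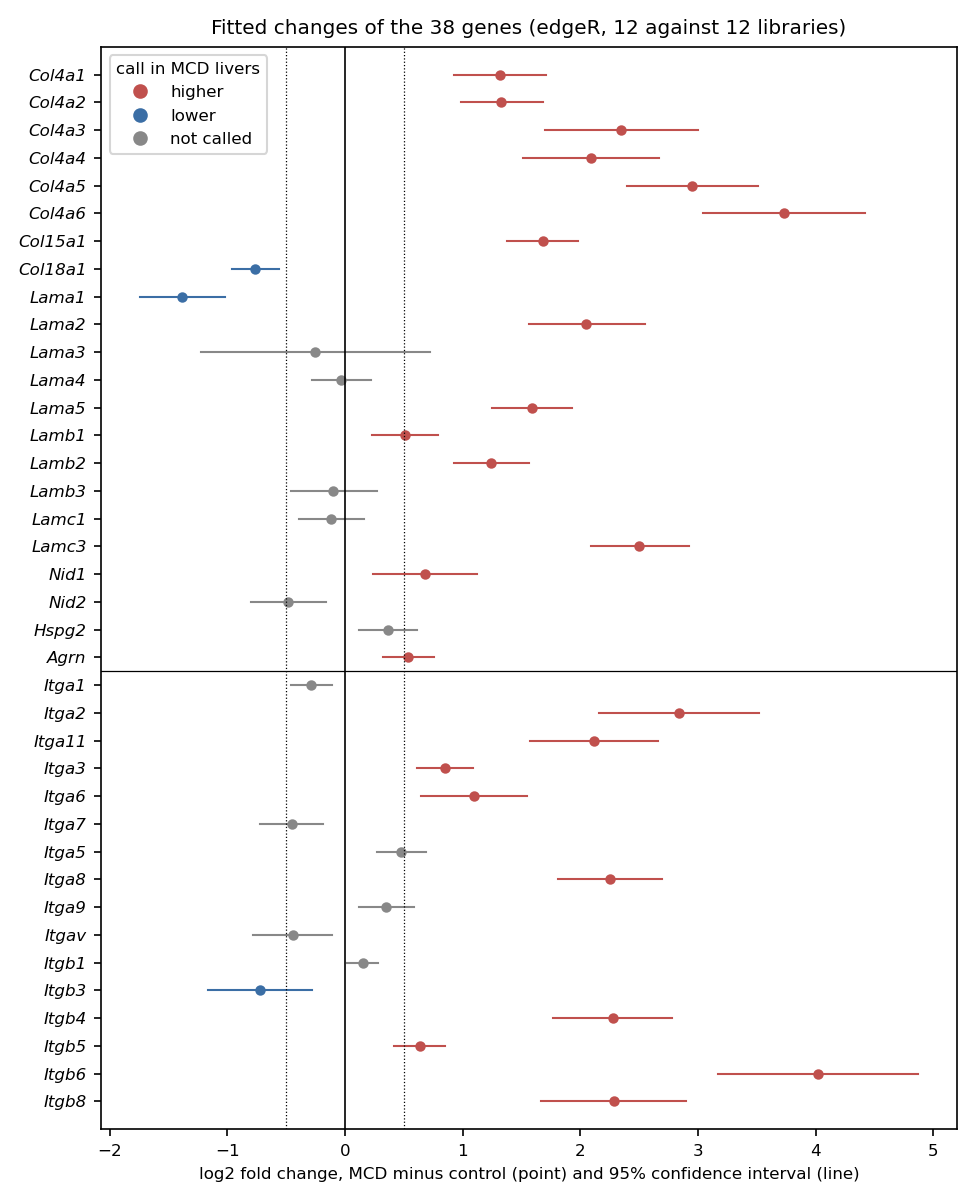
Fitted log2 fold change of each gene (point) with its 95% confidence interval (line), MCD minus control, 12 libraries per diet. The fold changes run from -1.38 for Lama1 to 4.02 for Itgb6, and dotted lines mark the limit of 0.5 in either direction.

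All 6 chains of type IV collagen, the sheet-forming collagen of basement membranes, rose in MCD livers, with a median log2 fold change of 2.22. Col4a1 and Col4a2 form the trimer found in nearly every basement membrane. Col4a1 ran from 32.9 to 132 CPM (median 57.5) in the control libraries and from 128 to 209 CPM (median 164) in the MCD libraries, so that 11 of 12 MCD libraries lay above the highest control (log2 fold change 1.32 ± 0.19 (SE), edgeR FDR = 1.25e-06). Col4a2 ran from 21.3 to 69.8 CPM (median 37.1) in the control libraries and from 68.5 to 127 CPM (median 99.7) in the MCD libraries, again with 11 of 12 above (log2 fold change 1.33 ± 0.17 (SE), edgeR FDR = 1.37e-07). Both rises were 2.50-fold to 2.52-fold, and the overlap came from control replicate 4, which had the highest Col4a1 of its group.

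The other chains occur in the trimers of kidney, lung, eye and smooth muscle basement membranes, and were scarce in control livers. Col4a3 ran from 0.224 to 0.735 CPM (median 0.333) in the control libraries and from 0.735 to 4.05 CPM (median 1.85) in the MCD libraries (log2 fold change 2.35 ± 0.31 (SE), edgeR FDR = 3.92e-07). Its lowest MCD library stood at the level of the highest control. Col4a4 ran from 0.059 to 1.36 CPM (median 0.987) in the control libraries and from 2.1 to 7.06 CPM (median 3.05) in the MCD libraries without overlap (log2 fold change 2.09 ± 0.28 (SE), edgeR FDR = 4.27e-07). Col4a5, the most abundant of these chains in MCD, ran from 0.186 to 2.55 CPM (median 0.915) in the control libraries and from 5.22 to 11.9 CPM (median 7.55) in the MCD libraries (log2 fold change 2.95 ± 0.27 (SE), edgeR FDR = 6.74e-10). For Col4a6, the chain with the largest rise, the range was 0.0558 to 0.735 CPM (median 0.12) in the control libraries and from 0.746 to 4.26 CPM (median 2.68) in the MCD libraries (log2 fold change 3.73 ± 0.34 (SE), edgeR FDR = 5.24e-10). The highest control library of Col4a6 lay just below the lowest MCD library, and 8 of 12 control libraries held 3 or fewer of its reads, so its fitted fold rests on few reads. Col4a3 had 4 to 13 reads in the control libraries.

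Per kilobase of exon, the summed level of the 6 chains was 15.2 ± 6.59 (SD, n = 12) in control and 39.4 ± 5.36 (SD, n = 12) in MCD, in units of CPM per kilobase, and the diets did not overlap. Col4a1 held 57.9% ± 3.56 of that sum in control and 56.6% ± 3.29 in MCD, and Col4a2 held 40.1% ± 3.09 and 38.1% ± 3.20. The share of Col4a5 was 0.962% ± 0.468 in control and 2.96% ± 0.470 in MCD, and it was the only one of the 6 shares whose diets did not overlap. The abundant chains therefore made up most of the sum in both diets, and the chains with the largest fold changes remained a few percent of it.

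**Figure D3:**
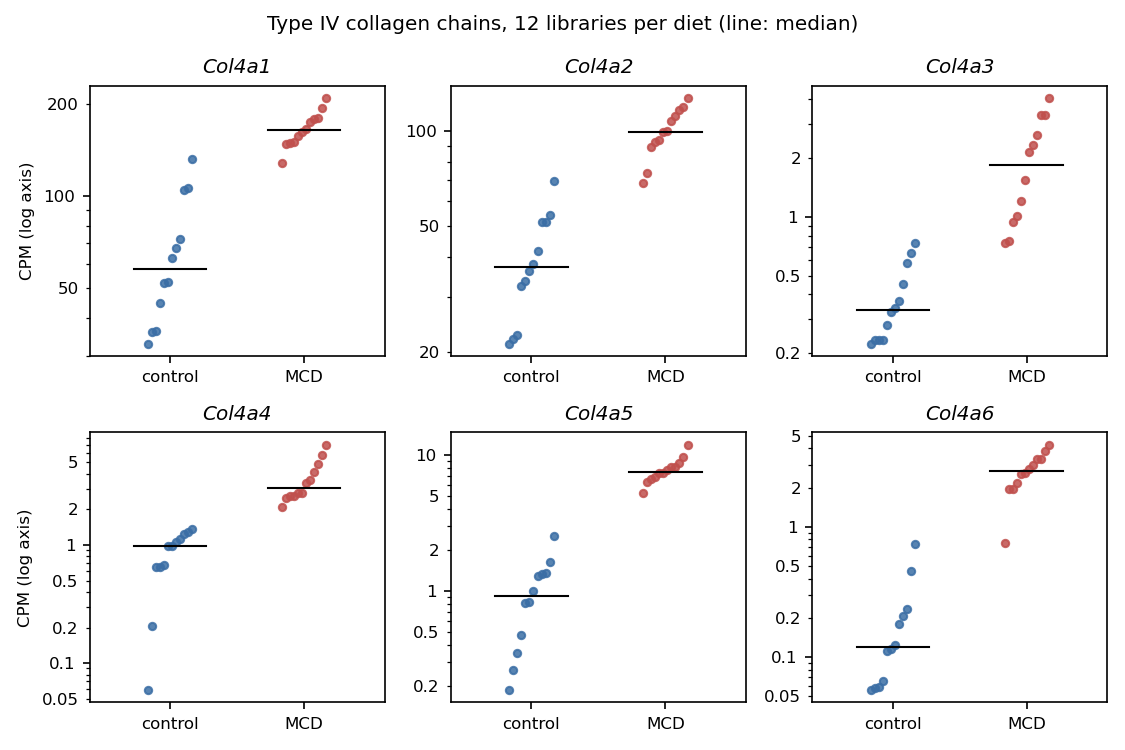
CPM of the 6 type IV collagen chains in 12 control (blue) and 12 MCD (red) libraries, on log axes, with the median as a line. For Col4a4, Col4a5 and Col4a6 every MCD library lies above every control library, and for Col4a1 and Col4a2 a control library reaches the MCD range.

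The type IV collagen genes lie in pairs that start back to back, on opposite strands. By annotation the starts of Col4a1 and Col4a2 on chromosome 8 are 21 bases apart and their first exons overlap. The starts are 72 bases apart for Col4a4 and Col4a3 on chromosome 1, and 1343 for Col4a5 and Col4a6 on chromosome X. The windows of 250 bases before to 50 after the start are printed below for the pair that is most abundant and the pair that rose most (RefSeq, GRCm38.p6, each 5′ to 3′ on its own strand), because genes of a pair are compared in the next paragraph. They are chr8:11312777-11313076 (minus strand), chr8:11312555-11312854 (plus strand), chrX:141475169-141475468 (plus strand) and chrX:141474027-141474326 (minus strand). Capitals mark CCAAT and GGGCGG, or their reverse complements.
Col4a1: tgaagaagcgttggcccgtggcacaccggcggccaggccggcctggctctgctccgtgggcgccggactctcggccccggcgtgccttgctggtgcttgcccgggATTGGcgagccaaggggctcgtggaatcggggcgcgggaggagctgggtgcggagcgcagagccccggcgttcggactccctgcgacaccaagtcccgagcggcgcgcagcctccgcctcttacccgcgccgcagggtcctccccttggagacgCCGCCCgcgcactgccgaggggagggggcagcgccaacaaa
Col4a2: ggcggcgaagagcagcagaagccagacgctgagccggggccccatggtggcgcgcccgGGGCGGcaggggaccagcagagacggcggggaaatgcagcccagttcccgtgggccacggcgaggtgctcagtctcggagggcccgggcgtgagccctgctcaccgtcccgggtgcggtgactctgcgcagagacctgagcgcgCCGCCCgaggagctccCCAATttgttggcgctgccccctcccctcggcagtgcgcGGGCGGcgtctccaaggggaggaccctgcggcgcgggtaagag
Col4a5: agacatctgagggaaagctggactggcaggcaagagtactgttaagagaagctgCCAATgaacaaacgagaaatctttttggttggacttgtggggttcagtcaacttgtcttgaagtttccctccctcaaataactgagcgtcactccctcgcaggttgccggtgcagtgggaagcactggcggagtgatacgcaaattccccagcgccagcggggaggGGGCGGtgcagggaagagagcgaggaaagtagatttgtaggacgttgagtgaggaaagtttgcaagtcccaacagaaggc
Col4a6: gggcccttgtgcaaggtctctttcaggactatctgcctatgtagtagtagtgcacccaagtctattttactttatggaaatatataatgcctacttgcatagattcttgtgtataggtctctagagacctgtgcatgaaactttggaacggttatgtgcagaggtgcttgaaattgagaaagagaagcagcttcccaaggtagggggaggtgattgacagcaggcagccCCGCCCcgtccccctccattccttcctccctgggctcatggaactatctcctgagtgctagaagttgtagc
The Col4a1 and Col4a2 windows share 78 bases, and 1 GGGCGG match lies in the shared stretch. GGGCGG, the core of a GC box, was found in 19 of the 32 windows of the 27 listed genes with a RefSeq window and in 35.7% of all 32851 windows, CCAAT in 8 of 32 against 37.4%, and TGANTCA, the AP-1 motif, in 2 of 32 against 7.81%, searching both strands. None of the 4 printed windows holds TGANTCA. These matches describe letters in a window and say nothing of binding.

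Within the control livers Col4a1 and Col4a2 varied together across libraries. Pearson's r of their log2 CPM was 0.96 (two-sided permutation test with 100000 resamples, adjusted over 6 relations, p = 0.00012) and Spearman's rho 0.94 (adjusted p = 0.00036), and r was 0.95 without the 2 libraries farthest from the median. In MCD livers r was 0.66 (adjusted permutation p = 0.039) and rho 0.54 (adjusted p = 0.112), and r was 0.47 without 2 libraries, so that relation rests on them. Col4a3 and Col4a4 had r = 0.68 (adjusted permutation p = 0.039) and rho = 0.73 (adjusted p = 0.0166) in MCD, but r = 0.56 without 2 libraries, and r = -0.19 (adjusted p = 0.556) with rho = 0.18 (adjusted p = 0.578) in control. For Col4a5 and Col4a6, r was 0.43 in control and 0.45 in MCD (adjusted permutation p = 0.183 for both), while rho was 0.34 (adjusted p = 0.342) and 0.73 (adjusted p = 0.0166). Without 2 libraries r was 0.59 in both diets (adjusted permutation p = 0.133 for both). The rho was then 0.49 in control (adjusted p = 0.23) and 0.77 in MCD (adjusted p = 0.0406). Libraries of a diet may also share the sex of the mouse, whose part in these relations was not tested.

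Collagens XV and XVIII, related proteins that carry glycosaminoglycan chains and sit at the edge of basement membranes, moved in opposite directions. Col15a1 ran from 7.92 to 18.8 CPM (median 10.1) in the control libraries and from 23.6 to 50.4 CPM (median 37.6) in the MCD libraries and rose 3.21-fold (log2 fold change 1.68 ± 0.15 (SE), edgeR FDR = 3.1e-10). Col18a1, the source of endostatin and a gene known to be transcribed by hepatocytes, ran from 990 to 1878 CPM (median 1272) in the control libraries and from 681 to 965 CPM (median 829) in the MCD libraries and was 1.69-fold lower (log2 fold change -0.76 ± 0.10 (SE), edgeR FDR = 1.95e-07). Neither gene's diets overlapped. Col18a1 was by far the most abundant of the 38 genes per kilobase of exon, at 195 ± 39 CPM per kilobase (mean ± SD) in control and 115 ± 11.8 in MCD, against 1.78 ± 0.577 and 5.72 ± 1.09 for Col15a1. With total counts alone the log2 fold change of Col18a1 was -0.40 and was no longer called. The ratio of the counts of the 2 genes within a library needs no scaling: log2 of Col15a1 over Col18a1 was -6.96 ± 0.38 (SD, n = 12) in control and -4.50 ± 0.38 (SD, n = 12) in MCD, a difference of 2.46 ± 0.15 (SE) with no overlap (two-sided permutation test, adjusted over 9 ratios, p = 4.5e-05).

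Of the 10 laminin chains, 5 rose, 1 fell and 4 were not called. Among the alpha chains, which bind the integrins, Lama5 and Lama2 rose. Lama5, the alpha chain of most adult epithelial basement membranes, ran from 3.68 to 12 CPM (median 6.08) in the control libraries and from 14.5 to 32.3 CPM (median 19.6) in the MCD libraries (log2 fold change 1.59 ± 0.17 (SE), edgeR FDR = 7.02e-09). Lama2, the chain of muscle and peripheral nerve, ran from 0.651 to 5.66 CPM (median 2.04) in the control libraries and from 6.76 to 16.2 CPM (median 9.27) in the MCD libraries (log2 fold change 2.05 ± 0.24 (SE), edgeR FDR = 4.13e-08). For both, every MCD library lay above every control library. Lama1, the chain of early embryonic basement membranes, had 2.71, 7.58 and 9.97 CPM as the lowest, median and highest control value and 1.35, 2.7 and 3.6 CPM as the same values in MCD, and fell (log2 fold change -1.38 ± 0.18 (SE), edgeR FDR = 1.79e-07). In 6 MCD libraries the level was below every control, and the overlap came from control replicate 9 alone, at 2.71 CPM. Lama1 kept its call with total counts alone and under every other alternative run.

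The remaining alpha chains were not called, and the sign of each depends on the scaling. Lama4, a chain of vessel walls, ran from 4.71 to 9.63 CPM (median 6.68) in the control libraries and from 4.73 to 9.45 CPM (median 6.69) in the MCD libraries (log2 fold change -0.03, 95% interval -0.28 to 0.22). Lama3, the chain of skin and other epithelial laminins, ran from 0.336 to 6.7 CPM (median 1.35) in the control libraries and from 0.517 to 4.76 CPM (median 1.76) in the MCD libraries (log2 fold change -0.25, 95% interval -1.22 to 0.72). Its control libraries differed from each other by more than the diets did: control replicates 1, 9 and 10 stood at 5.52, 6.07 and 6.70 CPM, and replicate 3 at 0.336 CPM. With total counts alone the log2 fold changes were 0.32 for Lama4 and 0.17 for Lama3, and neither was called.

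Lamb2, a beta chain of vessel, muscle and kidney basement membranes, ran from 6.37 to 17.3 CPM (median 9.5) in the control libraries and from 17.6 to 38.3 CPM (median 21.6) in the MCD libraries without overlap (log2 fold change 1.24 ± 0.15 (SE), edgeR FDR = 1.16e-07). Lamb1, the widespread beta chain, ran from 8.12 to 21.9 CPM (median 12.7) in the control libraries and from 13.6 to 28 CPM (median 17.6) in the MCD libraries, and only 1 MCD library lay above the highest control (log2 fold change 0.51 ± 0.14 (SE), edgeR FDR = 0.00209). Lamb1 passed the fold limit narrowly, and without MCD replicate 8 its log2 fold change was 0.47 and it was not called. Lamb3, partner of Lama3, ran from 3.9 to 14 CPM (median 7.79) in the control libraries and from 5.44 to 9.24 CPM (median 6.83) in the MCD libraries and was not called (log2 fold change -0.10, 95% interval -0.46 to 0.27). Its sign turned with total counts alone, at 0.31. Within a library, log2 of Lamb1 over Lamb2 was 0.37 ± 0.33 (SD, n = 12) in control and -0.35 ± 0.20 in MCD (difference -0.72 ± 0.11 (SE), two-sided permutation test, adjusted p = 7.2e-05), a ratio of counts that is not corrected for length. Per kilobase Lamb2 was above Lamb1 in both diets, at 1.62 ± 0.511 against 1.28 ± 0.386 CPM per kilobase (mean ± SD) in control and 3.84 ± 1.01 against 1.83 ± 0.362 in MCD.

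The gamma chains differed from each other. Lamc3, a gamma chain of restricted expression, ran from 2.77 to 9.24 CPM (median 4.0) in the control libraries and from 18 to 44.3 CPM (median 28.4) in the MCD libraries and rose 5.67-fold (log2 fold change 2.50 ± 0.20 (SE), edgeR FDR = 6.98e-11). The diets lay well apart, with the lowest MCD library far above the highest control. Lamc1, the gamma chain of most laminins, ran from 13.1 to 35.2 CPM (median 23.5) in the control libraries and from 18.7 to 27.6 CPM (median 22.5) in the MCD libraries and was not called (log2 fold change -0.12, 95% interval -0.39 to 0.16). With upper-quartile factors and with total counts alone the sign of Lamc1 turned, to 0.026 and 0.21.

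Shares of the summed level per kilobase within each chain type put these values together without any scaling between libraries. Of the 5 alpha chains, Lama1 held 32.4% ± 7.83 (SD, n = 12) in control and 8.71% ± 2.63 in MCD, and Lama5 held 25.0% ± 5.81 and 51.3% ± 5.04. Neither share overlapped between diets. Lama2 went from 6.26% ± 3.67 to 17.7% ± 2.49 and Lama4 from 25.4% ± 3.93 to 16.7% ± 1.93, both with overlap. Of the 2 gamma chains listed, Lamc1 held 77.5% ± 7.84 in control and 37.6% ± 6.78 in MCD, with no overlap, so Lamc3 was the larger of the pair in every MCD library. These shares are of RNA and were not tested.

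**Figure D4:**
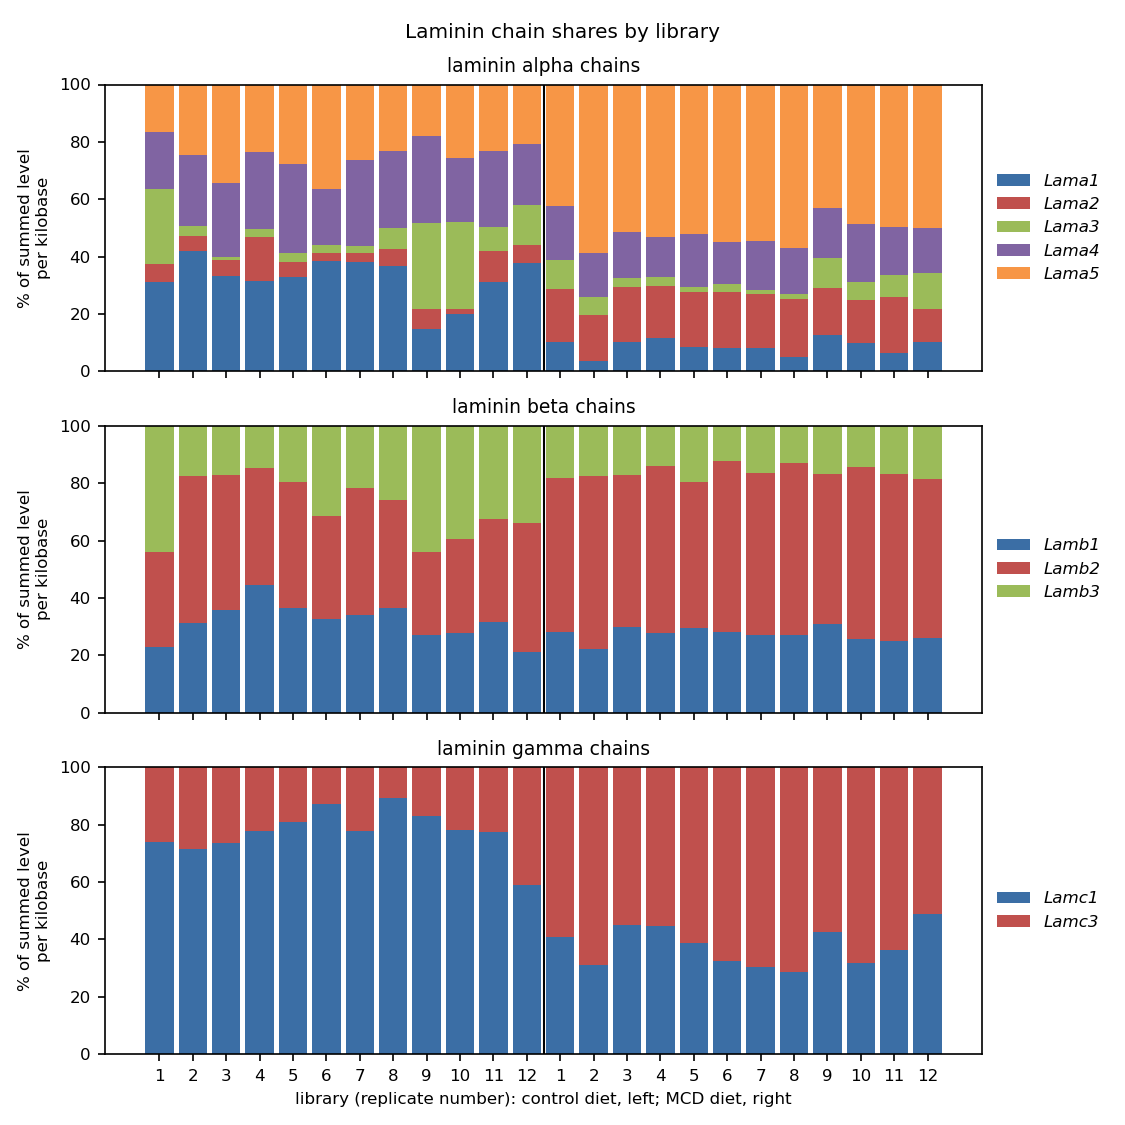
Share of each laminin alpha, beta and gamma chain in the summed level per kilobase of its type, as stacked bars per library (control left, MCD right). The Lama5 share averages 25.0% in control and 51.3% in MCD, and Lamc1 is the larger gamma chain in all 12 control libraries and the smaller in all 12 MCD libraries.

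Nid1, the nidogen that binds both laminin and type IV collagen, ran from 6.21 to 41 CPM (median 23.1) in the control libraries and from 28.3 to 51.3 CPM (median 38) in the MCD libraries, with 4 MCD libraries above the highest control (log2 fold change 0.68 ± 0.21 (SE), edgeR FDR = 0.00767). Control replicate 12 was the lowest for Nid1, and without MCD replicate 8 the FDR was 0.0117 and the call was lost. Nid2, its paralog, ran from 2.72 to 9.91 CPM (median 5.43) in the control libraries and from 3.22 to 4.87 CPM (median 4.28) in the MCD libraries (log2 fold change -0.48 ± 0.16 (SE), edgeR FDR = 0.0094) and missed the fold limit. It passed without control replicate 12, at -0.51. Within a library, log2 of Nid2 over Nid1 was -1.90 ± 0.43 (SD, n = 12) in control and -3.14 ± 0.30 in MCD, a difference of -1.23 ± 0.15 (SE; two-sided permutation test, adjusted p = 4.5e-05), with 11 of 12 MCD libraries below every control. Exons of Nid2 overlap those of Rtraf on the opposite strand over 437 bases, and the sources used here do not say whether the counting used strand.

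Agrn, best known from the nerve-muscle junction and present in the basement membranes of bile ducts and vessels, ran from 34.1 to 70.1 CPM (median 50) in the control libraries and from 58.2 to 94.4 CPM (median 68.1) in the MCD libraries (log2 fold change 0.54 ± 0.11 (SE), edgeR FDR = 7.92e-05). Hspg2, or perlecan, ran from 24.9 to 56.1 CPM (median 41.2) in the control libraries and from 39.3 to 71.5 CPM (median 47.6) in the MCD libraries (log2 fold change 0.37 ± 0.12 (SE), edgeR FDR = 0.00925). Hspg2 was below the fold limit, but it was called with upper-quartile factors, at 0.51, and with total counts alone, at 0.72. Their ratio did not pass the test: log2 of Agrn over Hspg2 differed by 0.17 ± 0.11 (SE) between diets (two-sided permutation test, adjusted p = 0.156).

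Among the collagen-binding integrin alpha chains, the scarce members rose and the abundant one was not called. Itga2, the collagen receptor chain of platelets and epithelia, ran from 0.0 to 0.566 CPM (median 0.137) in the control libraries and from 0.886 to 1.79 CPM (median 1.11) in the MCD libraries (log2 fold change 2.84 ± 0.33 (SE), edgeR FDR = 3.86e-08). Itga11, a collagen receptor chain of fibroblasts, ran from 0.112 to 0.582 CPM (median 0.335) in the control libraries and from 0.715 to 2.72 CPM (median 1.54) in the MCD libraries (log2 fold change 2.12 ± 0.27 (SE), edgeR FDR = 1.41e-07). Neither overlapped between diets. Itga2 had 0 to 10 reads in the control libraries, with 8 of 12 at 3 reads or fewer, and Itga11 had 2 to 13 reads. Itga1, whose receptor binds type IV collagen, ran from 18.8 to 40.9 CPM (median 34.3) in the control libraries and from 23.7 to 29.7 CPM (median 27.2) in the MCD libraries (log2 fold change -0.29 ± 0.085 (SE), edgeR FDR = 0.00502). Itga1 was below the fold limit, its sign turned with total counts alone, at 0.05, and its exons share 685 bases with a predicted gene on the same strand. Per kilobase, Itga1 remained well above Itga2 in both diets, at 1.46 ± 0.0957 against 0.177 ± 0.0509 CPM per kilobase (mean ± SD) in MCD. Within a library, log2 of Itga2 over Itga1 went from -7.83 ± 1.30 (SD, n = 12) to -4.45 ± 0.43, a difference of 3.38 ± 0.39 (SE) without overlap (two-sided permutation test, adjusted p = 4.5e-05). With so few control reads of Itga2 the size rests on the 0.5 added to each count, and with 2 added the difference was 2.63.

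Of the laminin-binding alpha chains, Itga3 and Itga6 rose. Itga3 ran from 10.7 to 17.4 CPM (median 12.5) in the control libraries and from 16.8 to 35.4 CPM (median 23.4) in the MCD libraries, with 11 of 12 MCD libraries above every control (log2 fold change 0.85 ± 0.12 (SE), edgeR FDR = 4.7e-07). Itga6, which pairs with the beta chains of Itgb1 and Itgb4, ran from 1.43 to 5.75 CPM (median 3.84) in the control libraries and from 5.18 to 11.9 CPM (median 7.49) in the MCD libraries, with 9 of 12 above (log2 fold change 1.10 ± 0.22 (SE), edgeR FDR = 9.77e-05). Control replicates 1, 9, 10 and 12 had less than 2 CPM of Itga6. Itga7, a laminin receptor chain of muscle, ran from 8.54 to 16.6 CPM (median 11.5) in the control libraries and from 6.79 to 13.3 CPM (median 8.2) in the MCD libraries (log2 fold change -0.45 ± 0.13 (SE), edgeR FDR = 0.00344), and 8 MCD libraries lay below the lowest control, but the change missed the fold limit. The ratio of Itga3 to Itga6 differed by -0.39 ± 0.23 (SE) on the log2 scale and did not pass the test (two-sided permutation test, adjusted p = 0.147).

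Of the alpha chains that bind RGD motifs and other ligands, 1 of 4 was called. Itga8, the receptor chain for nephronectin and a gene of mesenchymal cells, ran from 3.71 to 14.5 CPM (median 6.41) in the control libraries and from 24.5 to 71.5 CPM (median 30.8) in the MCD libraries and rose 4.75-fold (log2 fold change 2.25 ± 0.21 (SE), edgeR FDR = 1.4e-09). Its share of the summed alpha chain level per kilobase went from 5.75% ± 2.50 (SD, n = 12) to 18.1% ± 3.87 without overlap. Its ligand gene Npnt was at most 1.17 CPM in any library and did not pass the filter on low counts. Itga5, the fibronectin receptor chain, ran from 20.5 to 41 CPM (median 25.6) in the control libraries and from 32.7 to 47.1 CPM (median 39.9) in the MCD libraries (log2 fold change 0.48 ± 0.10 (SE), edgeR FDR = 0.000247). Itga5 missed the fold limit by little and was called under 11 of 13 alternatives, at up to 0.84 with total counts alone. Itga9 ran from 13.2 to 29.6 CPM (median 21.8) in the control libraries and from 22.6 to 32.6 CPM (median 27.4) in the MCD libraries (log2 fold change 0.35, 95% interval 0.12 to 0.59). With total counts alone Itga9 was called, at 0.69. Itgav, which pairs with several of the beta chains listed here, ran from 5.68 to 20.5 CPM (median 14.8) in the control libraries and from 6.03 to 13.9 CPM (median 10.3) in the MCD libraries (log2 fold change -0.44, 95% interval -0.78 to -0.11).

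Among the beta chains, Itgb6, Itgb8 and Itgb4 rose most. Itgb6, a beta chain of epithelia that pairs with Itgav and releases active TGF-beta from its latent form, ran from 0.0 to 0.605 CPM (median 0.112) in the control libraries and from 1.1 to 4.26 CPM (median 2.19) in the MCD libraries (log2 fold change 4.02 ± 0.41 (SE), edgeR FDR = 5.01e-09). It had 0 to 8 reads in the control libraries, 4 of which had none and 10 of which were at or under 3 reads, so its control level was not resolved in most libraries. Itgb8, which also activates latent TGF-beta, ran from 0.0682 to 1.3 CPM (median 0.525) in the control libraries and from 1.73 to 3.7 CPM (median 2.8) in the MCD libraries (log2 fold change 2.29 ± 0.30 (SE), edgeR FDR = 2.88e-07), and 4 of its control libraries were at or under 3 reads. Itgb4, the hemidesmosome chain that pairs with Itga6, ran from 0.26 to 3.1 CPM (median 1.35) in the control libraries and from 3.3 to 10.9 CPM (median 6.43) in the MCD libraries (log2 fold change 2.28 ± 0.25 (SE), edgeR FDR = 1.2e-08). All 12 MCD libraries lay above all 12 control libraries for each of the 3 genes.

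The abundant beta chains moved little by comparison. Itgb5, a vitronectin receptor chain, ran from 110 to 223 CPM (median 136) in the control libraries and from 184 to 281 CPM (median 218) in the MCD libraries (log2 fold change 0.64 ± 0.11 (SE), edgeR FDR = 9e-06). Itgb1, the shared partner of most matrix-binding alpha chains, ran from 124 to 177 CPM (median 169) in the control libraries and from 171 to 187 CPM (median 178) in the MCD libraries and was not called (log2 fold change 0.15, 95% interval 0.022 to 0.28). With total counts alone Itgb1 was called, at 0.51. Per kilobase these genes had similar levels in control, 40.3 ± 9.11 for Itgb5 and 39.4 ± 4.44 for Itgb1 in CPM per kilobase (mean ± SD), and 62.6 ± 8.61 and 43.7 ± 1.28 in MCD. They made up nearly all of the summed beta chain level, with mean shares for Itgb1 and Itgb5 of 49.2% and 49.4% in control and 40.6% and 57.5% in MCD. The summed level of the 6 beta chains was 80.8 ± 6.21 CPM per kilobase (SD, n = 12) in control and 108 ± 9.03 in MCD.

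Itgb3, the beta chain of the platelet fibrinogen receptor and of a vitronectin receptor, ran from 3.12 to 9.28 CPM (median 4.75) in the control libraries and from 1.28 to 5.55 CPM (median 2.89) in the MCD libraries, with 7 MCD libraries below the lowest control (log2 fold change -0.72 ± 0.21 (SE), edgeR FDR = 0.00478). The Itgb3 call was lost under 7 of 13 alternatives, though its level stayed lower in MCD: by edgeR's test the FDR was 0.0243 with upper-quartile factors, 0.123 with total counts alone, 0.0115 with no low-count filter, 0.0109 with at least 10 counts in every sample and 0.0131 without MCD replicate 8, and a log2 limit of 1 also ended the call, as did a replicate block (FDR = 0.0164). Log2 of Itgb8 over Itgb5 within a library was -8.36 ± 1.33 (SD, n = 12) in control and -6.34 ± 0.26 in MCD (difference 2.02 ± 0.39 (SE), two-sided permutation test, adjusted p = 4.5e-05), with 11 of 12 MCD libraries above every control.

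Across the 9 ratios within libraries, 5 differed between the diets past an adjusted p of 0.05 and 4 did not. The ratio of Col4a2 to Col4a1 differed by -0.042 ± 0.083 (SE; two-sided permutation test, adjusted p = 0.616), a small difference beside that of the other pairs. Col4a6 over Col4a5 differed by 0.61 ± 0.37 (SE, adjusted p = 0.147) and by 0.17 with 2 added to each count in place of 0.5. That replacement changed no call among the 9, and Itgb8 over Itgb5 then differed by 1.70.

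**Figure D5:**
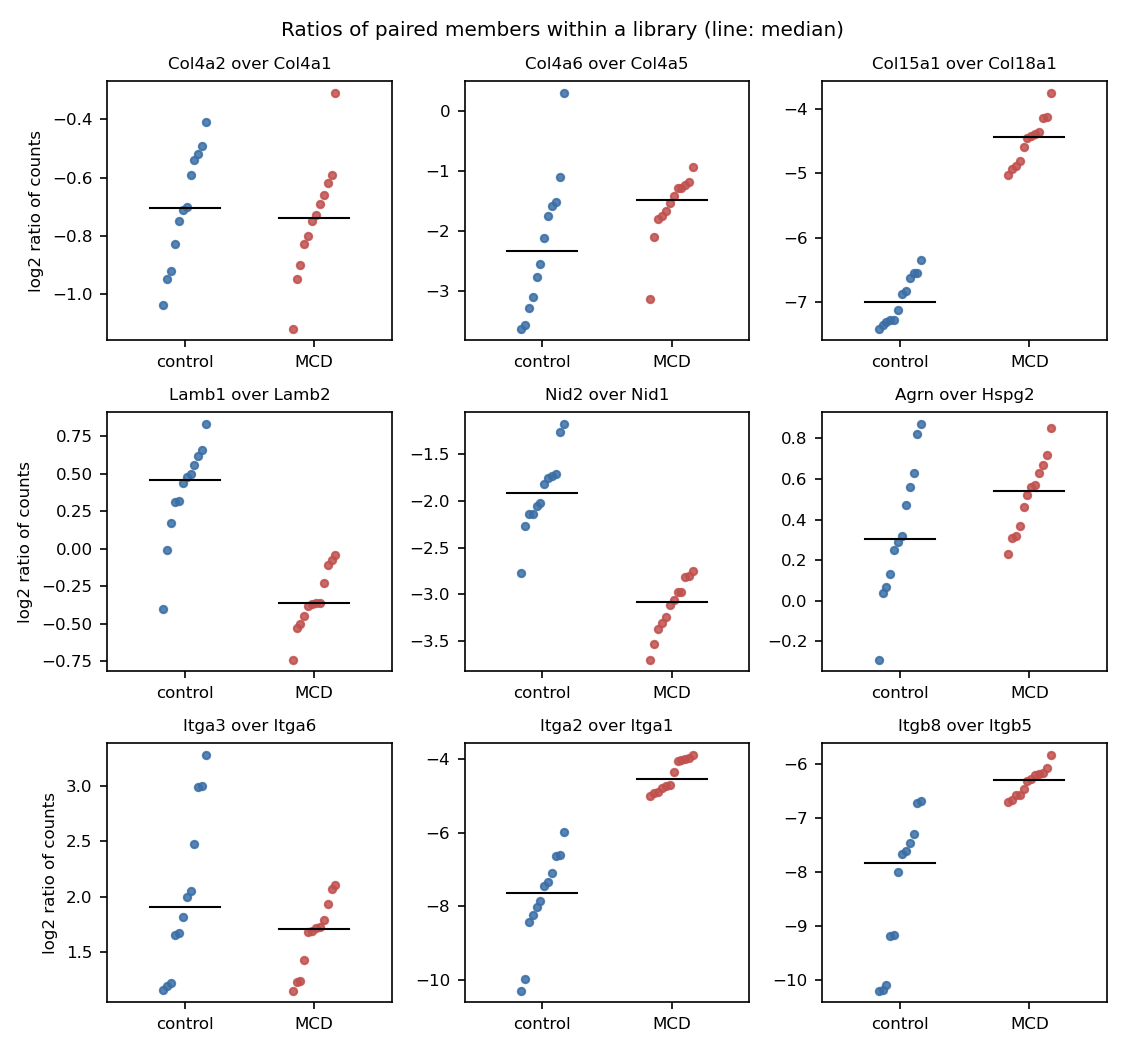
Log2 ratio of raw counts of 9 pairs of genes in each of 12 control (blue) and 12 MCD (red) libraries, with the median as a line and a separate axis for each pair. Col15a1 over Col18a1 and Itga2 over Itga1 do not overlap between diets, Nid2 over Nid1 is lower in MCD, and Col4a2 over Col4a1 overlaps between diets over most of its range.

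Genes that work with these proteins were followed in lists, whose counts are to be read against the 19.2% of all genes tested that were called higher and the 19.1% called lower. Of 17 other basement membrane proteins, 14 could be tested; 6 rose and 4 fell. Egflam, or pikachurin, had 0.118, 0.699 and 1.43 CPM as the lowest, median and highest control value and 2.36, 4.9 and 7.17 CPM as the same values in MCD (log2 fold change 2.72 ± 0.25 (SE), edgeR FDR = 5.39e-10). Fbln1, a fibulin, (log2 fold change 2.44 ± 0.30 (SE), edgeR FDR = 8.69e-08) and Smoc2, a SPARC relative, (log2 fold change 2.07 ± 0.16 (SE), edgeR FDR = 4.69e-11) also rose. Papln (log2 fold change -1.46 ± 0.18 (SE), edgeR FDR = 1.46e-07), Fras1 (log2 fold change -1.13 ± 0.22 (SE), edgeR FDR = 8.06e-05) and Smoc1 (log2 fold change -0.87 ± 0.10 (SE), edgeR FDR = 3.8e-08) fell, so the SMOC paralogs moved in opposite directions. Of 12 non-integrin matrix receptors, 3 rose and 1 fell. Ddr1, a collagen receptor tyrosine kinase, ran from 1.76 to 12.8 CPM (median 4.15) in the control libraries and from 34.4 to 65 CPM (median 46.8) in the MCD libraries (log2 fold change 3.30 ± 0.25 (SE), edgeR FDR = 2.81e-11), Cd44, the hyaluronan receptor, had a log2 fold change of 1.97, and Bcam, a receptor for the laminin chain of Lama5, 1.81. Sdc2 fell (log2 fold change -0.63 ± 0.089 (SE), edgeR FDR = 9.75e-07).

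Of 18 genes whose products couple integrins to actin inside the cell, 3 rose and 1 fell. Fermt1, the kindlin of epithelia, ran from 0.291 to 1.53 CPM (median 0.872) in the control libraries and from 1.59 to 5.87 CPM (median 3.34) in the MCD libraries (log2 fold change 1.92 ± 0.24 (SE), edgeR FDR = 1.31e-07). Flna, filamin A, (log2 fold change 1.82 ± 0.13 (SE), edgeR FDR = 8.85e-12) and Fermt3, the kindlin of blood cells, (log2 fold change 1.65 ± 0.17 (SE), edgeR FDR = 4.71e-09) rose as well, and Tln2, a talin, fell (log2 fold change -0.76 ± 0.11 (SE), edgeR FDR = 6.77e-07). The median log2 fold change of the 18 was -0.04, against -0.10 over all genes tested. Of 9 leukocyte and platelet integrins, 8 could be tested and 7 rose. Itgax ran from 0.586 to 8.26 CPM (median 3.4) in the control libraries and from 39.7 to 87.8 CPM (median 49.6) in the MCD libraries (log2 fold change 3.82 ± 0.28 (SE), edgeR FDR = 1.49e-11), and Itgam, another leukocyte alpha chain, and Itgb2, the beta chain that pairs with both, had log2 fold changes of 3.33 and 2.87. Of 12 soluble integrin ligands, 8 rose and 1 fell. Spp1, or osteopontin, ran from 24.8 to 138 CPM (median 50.1) in the control libraries and from 412 to 822 CPM (median 600) in the MCD libraries (log2 fold change 3.34 ± 0.25 (SE), edgeR FDR = 2.04e-11), and Mfge8 (3.11) and Tgfb3 (2.87) had the next largest log2 fold changes. Fn1, fibronectin, which hepatocytes secrete into plasma, fell (log2 fold change -0.90 ± 0.12 (SE), edgeR FDR = 3.54e-07).

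Markers of several liver cell types also changed. Their counts, too, stand against 19.2% of all genes tested called higher and 19.1% called lower. Of 10 cholangiocyte markers, 8 were higher, and their summed level was 26.6 to 55.8 CPM in control and 83.7 to 174 CPM in MCD, without overlap. These values stand beside the rises of Lama5, Itga2, Itgb4, Itgb6 and Itgb8. In contrast, Lama3, of skin and other epithelial laminins, and its partner Lamb3 were not called (log2 fold change -0.25 and -0.10). Itgav, which pairs with Itgb6, was not called either (-0.44). Of 10 stellate cell and fibroblast markers, 6 were higher and 1 lower, with summed levels of 203 to 482 CPM and 434 to 751 CPM, beside the rises of type IV collagen, Lama2, Itga8 and Itga11. The rises set beside these lists were picked among the genes called higher. Among 10 sinusoidal endothelial markers 7 were lower and none higher (366 to 560 against 286 to 367 CPM), and among 10 vascular endothelial markers 5 were lower and 1 higher (249 to 437 against 261 to 355 CPM). All 8 monocyte-derived macrophage markers were higher (35.8 to 115 against 662 to 1377 CPM), beside the leukocyte integrins, one of which, Itgax, is also on that marker list. Kupffer cell markers were lower in 5 of 6 (149 to 445 against 81.3 to 297 CPM). Of the lists in which 4 of 6 markers could be tested, smooth muscle had 2 higher and 1 lower (10.2 to 34.9 against 20.9 to 46.6 CPM) and mesothelium 2 higher (1.67 to 8.51 against 5.98 to 16.6 CPM). Lymphocyte markers were higher in 4 of 8 (3.94 to 12.4 against 11.1 to 24.8 CPM) and proliferation markers in 6 of 6 (19.8 to 43.5 against 54.2 to 71.3 CPM). No marker was at 0 in all libraries of a diet. The part of cell composition in the changes of the 38 genes was not tested.

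Single libraries also stood out within a diet. MCD replicate 8 had the highest value of its group in 15 of the 23 raised genes, together with the highest Krt19 (24 CPM), a cholangiocyte keratin, and Col1a1 (311 CPM), fibrillar collagen I. Control replicate 4 was the highest control in 10 of the 23, with 132 CPM of Col4a1 and the highest control Col1a1 (74.7 CPM). Control replicate 12 was the highest control for Itgb4 (3.10 CPM) and Itgb6 (0.605 CPM) and had the highest control Krt19 (5.98 CPM). What sets these mice apart is not in the labels.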

How the data were processed

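Poly(A) RNA of 24 mouse livers was sequenced. The authors deposited a table of raw, unnormalized counts with an Ensembl gene per row and a library per column, and 0 columns were left unused. The submitters' processing notes name bcl2fastq, STAR 2.7.3a and mm10; for the mouse libraries, the counting program, annotation and use of strand are not given in the sources used here. The study's methods describe a stranded kit, the exon quantification pipeline with the same STAR version, and PISCES, against a human reference. Unstranded counting would add reads of antisense genes, whose exons overlap 13 of the 38 genes. Among genes called higher, the longest such overlaps were 631 bases in Lama2, 563 in Col4a3, 537 in Itgb4, 382 in Lamc3 and 372 in Itga8.

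Symbols came by Ensembl identifier from a list of gene names, and from GENCODE mouse release M21 where that list had none. Together they named 51745 of 56205 rows, and the rest held 0.0808% of counts. Exon lengths came from GENCODE M21. RefSeq windows are on GRCm38.p6. Levels compared between genes were CPM divided by kilobases of exon (union of exons).

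In R 4.3.3, genes were kept by filterByExpr (14109), scaled by TMM and fitted with edgeR 4.0.16 (glmQLFit, glmQLFTest), MCD against control, 24 libraries, no covariate. SEs and 95% intervals came from the F statistic. The fold and FDR limits follow the study's limits for human liver. The biological coefficient of variation was 26.8%, and 3 counts were the floor of each library. P-values for diet differences weigh the difference against the variation between these mice, without a term for sex. Log2 CPM used a prior count of 2, and ratios of raw counts had 0.5 added. Permutation tests were two-sided with 100000 resamples (scipy 1.17.1), which can give no p below 2e-05. The fit was tested on simulated data. Alternatives were other scalings, filters and thresholds, DESeq2 1.42.0, limma-voom (limma 3.58.1), the replicate number as a block, and a numeric covariate scored from sex-linked genes; leaving out control replicate 12 or MCD replicate 8 was added after seeing the data.

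The 38 genes, the 5 pathway lists, the 11 marker lists, the ratios and the tests were chosen with earlier results of these data known. All 38 genes are named, with full statistics for every one called with a mean of at least 1 CPM in either diet; of each pathway list at most 3 genes that rose most and 3 that fell most are named. Npnt was named after its values were seen.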

Additional observations from a re-analysis of the deposited data

How the results depend on the processing

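Of the 23 genes called higher, 18 kept the call under every one of the 13 alternatives that gave them a value, and of the 3 called lower only Lama1 did. Over single genes and alternatives, 484 values were compared, of which 430 kept direction and call, 23 gained a call, 16 lost one and 15 changed sign. The genes called higher numbered 15 when at least 10 counts were required in every sample, which left 28 of the 38 with a value. The genes called lower numbered 1 with total counts alone, 7 at FDR 0.05 with no fold limit and 1 with a log2 limit of 1, and with total counts alone 0 genes had every MCD library below every control. Over all genes, calls higher were 2712 (total counts alone, 4539; at least 10 counts, 1801) and calls lower 2688 (upper-quartile factors, 1710; total counts alone, 848; FDR of 0.05, 5221; log2 limit of 1, 686). The share of calls that were higher was 50.2%, against 65.6% with upper-quartile factors, 84.3% with total counts alone, 41.7% at an FDR of 0.05 and 73.1% with a log2 limit of 1. The sign changed only for genes not called. Lama4 became 0.027 with relative log expression factors, 0.12 with upper-quartile factors, 0.32 with total counts alone, 0.0026 with no low-count filter, 0.051 with at least 10 counts and 0.026 with DESeq2. Lamb3 became 0.062 with upper-quartile factors, 0.31 with total counts alone, 0.029 with limma-voom and ranged from -0.086 without MCD replicate 8 to 0.049 without control replicate 12. Lama3 became 0.17 with total counts alone and 0.091 with limma-voom, Lamc1 0.026 and 0.21 with upper-quartile factors and total counts alone, and Itga1 0.05 with total counts alone. The cause of these sign changes was not tested. The sex-linked score changed no call among the 38 genes. The labels do not say that replicate numbers pair the libraries, and not every same-numbered pair correlated: 8 of 12 had a correlation of deviations above 0.1, the median was 0.233 against -0.0592 for other pairs, and 2 of 12 control libraries correlated best with their own number. With the replicate block 24 genes were higher and 2 lower, since Itga5 was gained (0.50) and Itgb3 lost (FDR = 0.0164). Genes with few reads in control (Itgb6, Itga2, Col4a6, Itgb8, Itga11, Col4a3) are limited by depth in the size of their change.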

Other observations

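The most abundant members also varied within the control diet, by values seen before they were described here. Control replicates 3, 6 and 12 had the highest Col18a1 of their group, at 1749, 1722 and 1878 CPM, and the lowest Itgb1, at 135, 135 and 124 CPM. The other control libraries ran from 990 to 1411 CPM for Col18a1 and from 166 to 177 CPM for Itgb1. No label separates these libraries from the rest of their group.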
